A study of Mus musculus with 8 samples.

Results

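The genes described here build and regulate the acetylcholine receptor of the neuromuscular junction. They are the 5 receptor subunit genes Chrna1, Chrnb1, Chrnd, Chrne and Chrng, the clustering genes Musk, Lrp4 and Rapsn, the esterase gene Ache, and Lynx1, which encodes a Ly6 protein. They were chosen by name, through probe sets to which the platform annotation gives that symbol alone. Probe sets of the same gene were to be selected on their mean log2 signal over the 8 arrays, but each of the 10 genes had exactly 1, so no measured level settled a choice. They are 10 of the 19938 genes tested. Lynx1 was put among them with its genotype difference already known, so that difference is a description.

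RNA came from the gastrocnemius, a calf muscle in which fast fibres prevail, of mice aged 30 weeks on a low-fat chow diet without further treatment. The 4 Hdac5 KO samples lack histone deacetylase 5, a class IIa deacetylase that represses MEF2-dependent transcription, and the 4 WT samples came from wild type littermates. The submitters set out to learn what HDAC5 does in Il6 transcription and in genes that IL-6 regulates, and the genes below are a different reading of the same arrays. The labels number the samples without saying that each is a separate animal, so the p-values rest on the spread between samples that may be technical. The sources used here do not give which part of Hdac5 was deleted or in which cells.

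At the junction, acetylcholine from the motor nerve opens a receptor made of alpha, beta and delta subunits with either the epsilon subunit of adult muscle or the gamma subunit of embryonic and denervated muscle. Agrin from the nerve binds LRP4, which activates the receptor tyrosine kinase MuSK, and rapsyn then anchors the receptors in a dense cluster. Acetylcholinesterase ends the signal by breaking down acetylcholine. Lynx1 is a membrane-anchored relative of snake neurotoxins that binds nicotinic receptors and damps their response in mouse brain. In mouse muscle, HDAC4 and HDAC5 are known to take part in the response to denervation, in which loss of Dach2 repression raises myogenin and with it the receptor genes and Musk.

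Promoter sequences were matched by symbol for 6 of the 10 genes (Chrna1, Chrnb1, Chrne, Chrng, Musk and Ache) in RefSeq, build GRCm38.p6, and not for Chrnd, Rapsn, Lrp4 and Lynx1. The 250 bases before the start are shown for Musk and Chrnb1, whose samples separated by genotype below, and for Chrne and Chrng, the adult and embryonic alternatives. Capitals mark the E-box, CANNTG, which myogenic factors such as myogenin bind, and the N-box, CCGGAA, the site of the Ets factor GABP in synapse-specific promoters of rodents. Both strands were searched, and the E-box form CAGCTG is counted among the CANNTG matches too.
Musk (chr4:58285712-58285961, plus strand): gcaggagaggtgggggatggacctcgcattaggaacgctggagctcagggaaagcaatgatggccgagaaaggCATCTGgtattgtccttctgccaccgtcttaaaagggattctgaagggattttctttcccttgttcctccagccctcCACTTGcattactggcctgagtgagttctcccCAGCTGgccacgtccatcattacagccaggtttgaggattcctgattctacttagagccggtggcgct
Chrnb1 (chr11:69795938-69796187, minus strand): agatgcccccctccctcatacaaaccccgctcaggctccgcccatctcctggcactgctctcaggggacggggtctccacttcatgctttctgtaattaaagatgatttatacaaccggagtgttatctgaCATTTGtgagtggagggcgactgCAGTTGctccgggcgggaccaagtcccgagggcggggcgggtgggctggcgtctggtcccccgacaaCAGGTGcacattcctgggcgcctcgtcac
Chrne (chr11:70619195-70619444, minus strand): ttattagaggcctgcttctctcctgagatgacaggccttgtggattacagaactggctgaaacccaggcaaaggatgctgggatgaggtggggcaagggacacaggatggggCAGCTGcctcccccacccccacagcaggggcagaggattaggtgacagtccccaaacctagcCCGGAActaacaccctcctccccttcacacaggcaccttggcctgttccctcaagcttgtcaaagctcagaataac
Chrng (chr1:87205561-87205810, plus strand): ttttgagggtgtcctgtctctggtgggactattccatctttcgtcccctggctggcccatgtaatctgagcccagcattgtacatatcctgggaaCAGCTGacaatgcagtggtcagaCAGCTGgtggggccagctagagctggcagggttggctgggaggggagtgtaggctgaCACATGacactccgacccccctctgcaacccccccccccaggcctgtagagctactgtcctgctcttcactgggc
The Musk and Chrng stretches each held 3 E-boxes, of which 1 in Musk and 2 in Chrng were CAGCTG. Chrnb1 held 3 E-boxes and 0 of the CAGCTG form. Chrne held 1 E-box, a CAGCTG, and the N-box, which starts at position -76 counted back from the transcription start. Chrna1 held 3 E-boxes, 2 of them CAGCTG, and Ache held 1. Among all 32851 promoter stretches of this length, 66.2% held CANNTG, 13% CAGCTG and 12% CCGGAA, and a match of letters does not show that a factor binds there.

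The targeted gene was lower in every knockout sample than in any WT sample. Hdac5 read 8.32, 8.31, 8.31 and 8.39 in Hdac5 KO samples 1 to 4, against 9.94, 9.76, 9.83 and 9.80 in WT samples 1 to 4, all as log2 signal. The difference was -1.50 (SE 0.059, limma adjusted p = 1.74e-07), a signal ratio of 0.354. Skeletal muscle genes were bright in every sample, since the 12 identity genes measured, among them Ckm and Acta1, lay between the 99.3th and 100th percentile of gene signals. Arrays correlated at 0.988 to 0.995 over all probe sets. Of all genes, 0.0652% passed an adjusted p under 0.05 (13 genes, 0.0401% higher and 0.0251% lower), 7.9% had an unadjusted p under 0.05, and in 4.9% the samples of the genotypes did not overlap. That last share was made up of 2.91% higher and 1.99% lower in knockout muscle. The median difference of all genes was 0.003, and 48.6% of them had a lower mean in knockout muscle.

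Most of the junction genes had slightly lower means in knockout muscle, and Lynx1 had a higher one. The means of 8 were lower, namely those of all 5 receptor subunits, Musk, Lrp4 and Rapsn, and the means of Ache and Lynx1 were higher. Of all genes, 48.6% had a lower mean. At an adjusted p under 0.05 over all genes, 0 of the 10 passed in limma. At an unadjusted p under 0.05 there were 2 lower (Musk and Chrnb1) and 1 higher (Lynx1), and these were also the 3 whose samples did not overlap between genotypes. The shares of all genes were 7.9% for that p and 4.9% for the lack of overlap. The median difference over the 10 was -0.12. The genes share samples and, in part, regulators, and they were chosen with results known, so these counts are a description. In whole muscle, fewer cells or junctions and less RNA per cell cannot be told apart.

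**Figure D1:**
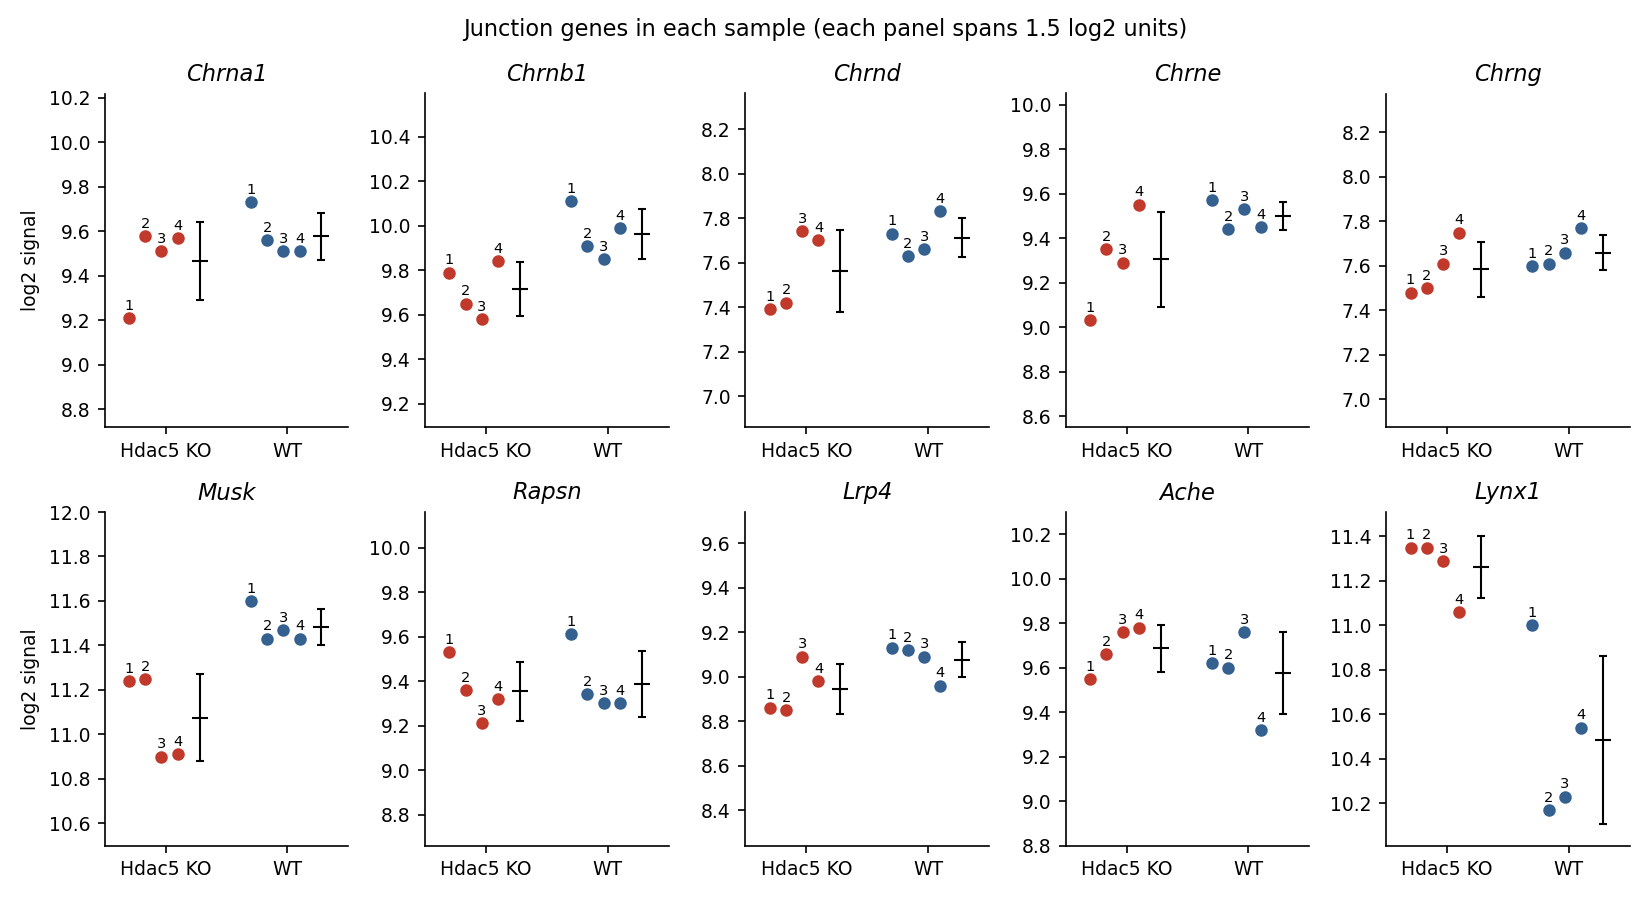
Log2 signal (vertical axis) of the 10 junction genes in each Hdac5 KO sample (red, left) and each WT sample (blue, right), numbered 1 to 4, with the mean and SD in black. The samples separate by genotype for Musk, Chrnb1 and Lynx1 and overlap for the other 7 genes.

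The 5 receptor subunit genes differed by -0.25 to -0.08, and 0 of them passed over all genes in limma. Chrna1 encodes the alpha subunit that carries the acetylcholine binding sites. It read 9.21, 9.58, 9.51 and 9.57 in Hdac5 KO samples 1 to 4, against 9.73, 9.56, 9.51 and 9.51 in WT samples 1 to 4. Knockout sample 1 was the low one and WT sample 1 the high one, and the other 6 lay within the same narrow band. The difference was -0.11 (SE 0.087, adjusted p = 0.818 in limma) with a 95% interval of -0.30 to 0.08, and it was -0.02 without Hdac5 KO sample 1 and -0.06 without WT sample 1.

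Chrnb1, the beta subunit gene, read 9.79, 9.65, 9.58 and 9.84 in Hdac5 KO samples 1 to 4, against 10.11, 9.91, 9.85 and 9.99 in WT samples 1 to 4. Every knockout sample lay below every WT sample, although the highest knockout sample all but met the lowest WT sample. The knockout mean was 9.72 ± 0.12 and the WT mean 9.96 ± 0.11 (SD, n = 4 each). The difference of -0.25 (SE 0.077) corresponds to a signal ratio of 0.843 (95% interval 0.750 to 0.947), with an adjusted p of 0.397 in limma. Chrnb1 and Chrne lie on chromosome 11, as Hdac5 does, with 659 and 609 tested genes between each of them and Hdac5.

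Chrnd, the delta subunit gene, read 7.39, 7.42, 7.74 and 7.70 in Hdac5 KO samples 1 to 4, against 7.73, 7.63, 7.66 and 7.83 in WT samples 1 to 4. Knockout samples 1 and 2 lay below all WT samples and knockout samples 3 and 4 among them. The difference was -0.15 (SE 0.088, adjusted p = 0.733 in limma), and it was -0.09 without Hdac5 KO sample 1 and -0.05 without both that sample and WT sample 4.

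The adult and embryonic subunits both had slightly lower means in knockout muscle. Chrne, the adult epsilon subunit, read 9.03, 9.35, 9.29 and 9.55 in Hdac5 KO samples 1 to 4, against 9.57, 9.44, 9.53 and 9.45 in WT samples 1 to 4. Knockout sample 4 lay among the WT samples and the other 3 below them, and the spread was 0.21 in knockout and 0.06 in WT muscle (SD, n = 4 each). The Chrne difference was -0.19 (SE 0.094, 95% interval -0.39 to 0.02, adjusted p = 0.670 in limma). Without Hdac5 KO sample 1 it was -0.10.
Chrng, the embryonic gamma subunit, read 7.48, 7.50, 7.61 and 7.75 in Hdac5 KO samples 1 to 4, against 7.60, 7.61, 7.66 and 7.77 in WT samples 1 to 4. The samples of the genotypes overlapped and the difference was -0.08 (SE 0.072, 95% interval -0.23 to 0.08, adjusted p = 0.851 in limma). It was -0.04 without Hdac5 KO sample 1 or WT sample 4, -0.05 without Hdac5 KO sample 2 and -0.13 without Hdac5 KO sample 4. Chrng and Chrnd were the dimmest of the set, at the 41.1th and 41.4th percentile of gene signals.

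Among the clustering genes, Musk stood lowest relative to WT. MuSK is the kinase through which agrin starts receptor clustering. Musk read 11.24, 11.25, 10.90 and 10.91 in Hdac5 KO samples 1 to 4, against 11.60, 11.43, 11.47 and 11.43 in WT samples 1 to 4. All 4 knockout samples lay below all 4 WT samples, with a gap of 0.18 between the nearest of them, and the knockout samples fell in 2 pairs. The means were 11.07 ± 0.20 in knockout and 11.48 ± 0.08 in WT muscle (SD, n = 4 each). The difference of -0.41 (SE 0.090) corresponds to a signal ratio of 0.755 (95% interval 0.658 to 0.865). Its unadjusted p of 0.000749 ranked 83rd among all genes, and the adjusted p was 0.180 in limma (0.0679 to 0.387 over the 15 alternatives), so Musk was not called.

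Lrp4, the agrin receptor, read 8.86, 8.85, 9.09 and 8.98 in Hdac5 KO samples 1 to 4, against 9.13, 9.12, 9.09 and 8.96 in WT samples 1 to 4. Knockout samples 1 and 2 lay below all WT samples, and the others among them. The difference was -0.13 (SE 0.070, adjusted p = 0.700 in limma).
Rapsn, which encodes the scaffold rapsyn, read 9.53, 9.36, 9.21 and 9.32 in Hdac5 KO samples 1 to 4, against 9.61, 9.34, 9.30 and 9.30 in WT samples 1 to 4. Sample 1 was the highest of each genotype, and the other samples were intermixed. The difference was -0.04 (SE 0.086, adjusted p = 0.949 in limma), and it turned to 0.04 without WT sample 1 and 0.01 without Hdac5 KO sample 3.

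Ache, the esterase gene, read 9.55, 9.66, 9.76 and 9.78 in Hdac5 KO samples 1 to 4, against 9.62, 9.60, 9.76 and 9.32 in WT samples 1 to 4. WT sample 4 was the lowest of all, and the other WT samples lay within the knockout range. The difference was 0.12 (SE 0.091, adjusted p = 0.815 in limma), and it was 0.03 without WT sample 4 and 0.18 without WT sample 3.

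Lynx1 read 11.35, 11.35, 11.29 and 11.06 in Hdac5 KO samples 1 to 4, against 11.00, 10.17, 10.23 and 10.54 in WT samples 1 to 4. Every knockout sample was higher than every WT sample, but WT sample 1 came within 0.05 of knockout sample 4. The means were 11.26 ± 0.14 in knockout and 10.49 ± 0.38 in WT muscle (SD, n = 4 each), and the WT SD lay at the 99.6th percentile of those of all genes. The difference was 0.78 (SE 0.153), a signal ratio of 1.71 (95% interval 1.36 to 2.16), and it did not pass in the fit over all genes (limma adjusted p = 0.117). Without WT sample 1 the difference was 0.95 with a limma adjusted p of 0.00662, and over all 15 alternatives the adjusted p ran from 0.00662 to 0.435.

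**Figure D2:**
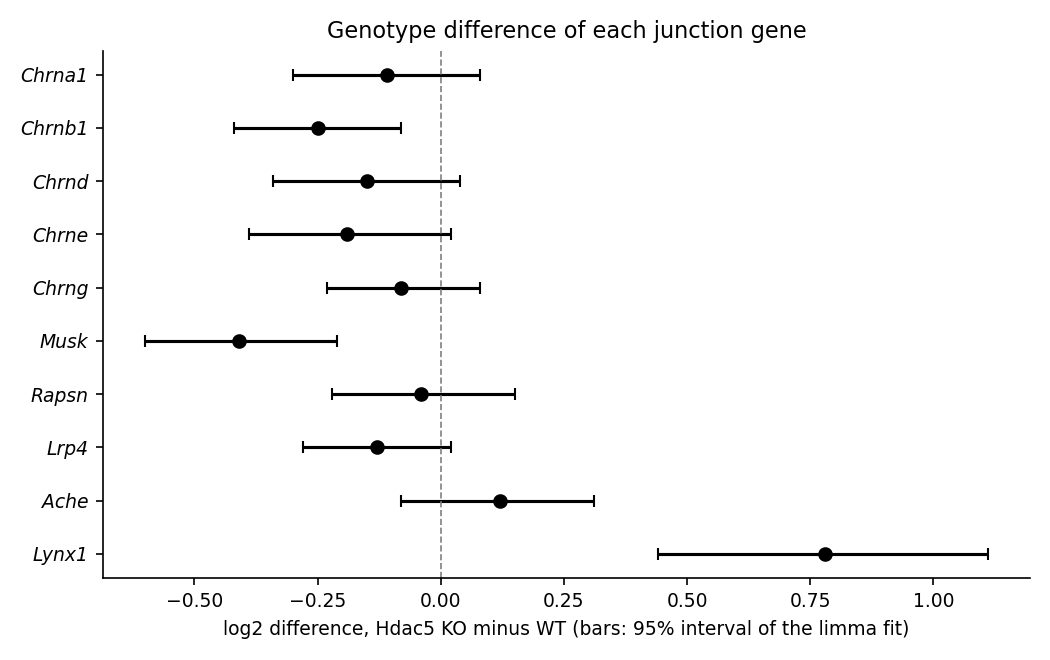
Log2 difference, Hdac5 KO minus WT (horizontal axis), of the 10 junction genes with the 95% interval of the limma fit as bars. The intervals of Musk and Chrnb1 lie below 0 and that of Lynx1 above 0, before any adjustment for the number of genes.

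Lynx1 lies on chromosome 15 in a cluster of Ly6 genes, and the differences of its neighbours were smaller. Of the 5 tested genes on each side, differences ran from -0.19 for Ly6k to 0.10 for Them6, and the genotypes overlapped in each of them. These neighbours were also dimmer, from the 15.4th percentile of gene signals for Psca to the 58.5th for Them6, against the 90.5th for Lynx1. Slurp2, which encodes a secreted Ly6 protein and is the nearest tested gene on one side of Lynx1, averaged 7.58 ± 0.07 in knockout and 7.63 ± 0.13 in WT muscle (SD, n = 4 each). In the wider family of 30 measured genes with Ly6 or uPAR domains other than Lynx1, 0 passed over all genes in limma. At an unadjusted p under 0.05, 0 were higher and 2 were lower, against 4.72% and 3.18% of all genes. The brightest of that family were Cd59a, an inhibitor of complement lysis, with a difference of 0.16, and Ly6e, with one of -0.01. The median of the family was -0.03 (0.003 without Hdac5 KO sample 1).

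The 5 genes whose profile over the 8 arrays was nearest to that of Lynx1 were Cmbl, C7, Fzd6, Efr3b and Rasd2. Likeness was the root mean square difference between log2 values centred on each gene's mean, and it ran from 0.168 for Cmbl to 0.250 for Rasd2. Cmbl, a hydrolase gene, read 12.46, 12.36, 12.12 and 12.41 in Hdac5 KO samples 1 to 4, against 11.80, 11.32, 11.36 and 11.60 in WT samples 1 to 4. In all 5 genes, as in Lynx1, WT sample 1 was the highest of the WT samples. In 4 of the 5 the genotypes did not overlap, against 4.9% of all genes, while Rasd2 overlapped. Cmbl, C7 and Efr3b passed over all genes in limma (adjusted p = 0.024, 0.0423 and 0.00753), while Fzd6 and Rasd2 did not (0.135 and 0.609). The choice of genes for their likeness to Lynx1 favours the high WT sample 1, the lack of overlap and a low p. Cmbl, C7 and Fzd6 lie on chromosome 15 like Lynx1, with 170, 241 and 126 tested genes between each of them and Lynx1. That chromosome carries 3.78% of the tested genes placed on a chromosome.

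**Figure D3:**
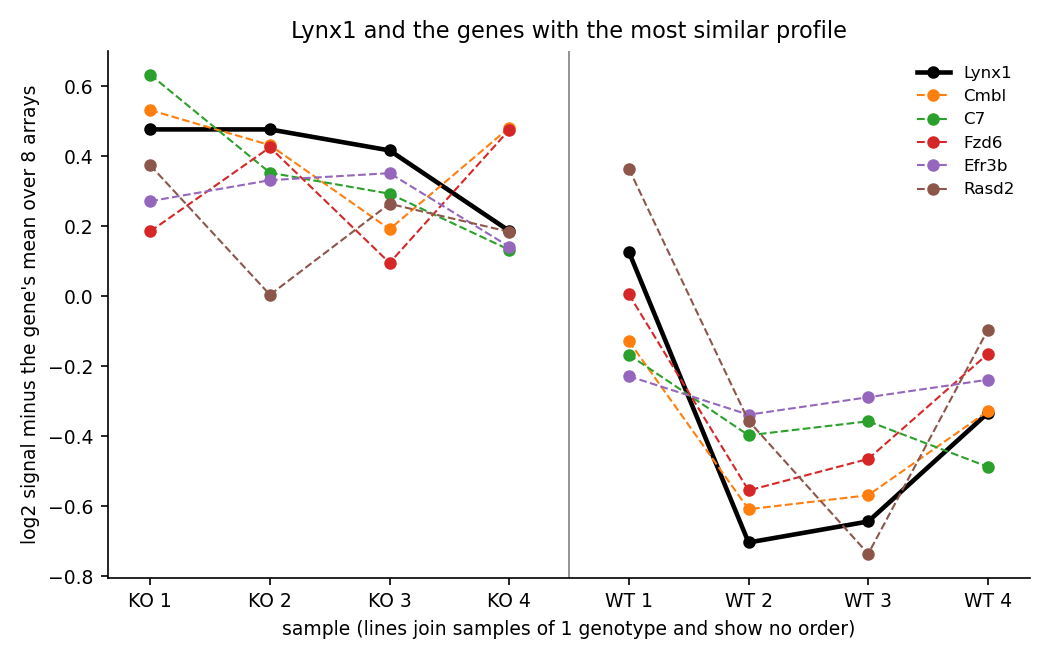
Log2 signal minus the gene's own mean over the 8 arrays (vertical axis) in each Hdac5 KO sample (left) and WT sample (right) for Lynx1 (black) and the 5 genes nearest to it. Lynx1 is high in the knockout samples, intermediate in WT sample 1 and lowest in WT samples 2 and 3.

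Other genes of the junction had median differences near 0 or slightly above it. Of the 26 measured genes of agrin and MuSK signalling, 0 passed over all genes in limma, and at an unadjusted p under 0.05 there were 4 higher and 0 lower, where 4.72% of all genes were higher and 3.18% lower. These were the kinase genes Abl2 (difference 0.18) and Yes1 (0.20), the adaptor Sorbs2 (0.18) and cortactin, Cttn (0.17). The list's median difference was 0.02 (0.004 to 0.047 with 1 sample left out). Agrn, the agrin gene, averaged 8.36 ± 0.10 in knockout and 8.35 ± 0.07 in WT muscle, and Dok7, the adaptor that activates MuSK from inside the fibre, 9.25 ± 0.07 in knockout and 9.20 ± 0.11 in WT muscle (SD, n = 4 each). Agrn and Dok7 were named for their known roles, outside the rule for named genes.

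Of 21 synaptic basal lamina genes, 13 had higher and 8 had lower means in knockout muscle, and 0 passed over all genes in limma. At an unadjusted p under 0.05, 3 were higher and 1 lower, beside 4.72% and 3.18% of all genes. The median difference was 0.06, and it was 0.006 without WT sample 4 and 0.108 without WT sample 2. Nid1, a basement membrane linker, differed by 0.31, the laminin chain Lamb1 by 0.21 and Nid2, a relative of Nid1 concentrated at synapses, by 0.15, while vitronectin, Vtn, differed by -0.22. Colq, the collagen tail that anchors acetylcholinesterase, averaged 8.58 ± 0.04 in knockout and 8.64 ± 0.12 in WT muscle (SD, n = 4 each) and was also chosen for its role. Fibroblast markers had higher means beside these matrix genes, 11 of 11 of them, with list means of 10.39 to 10.70 in knockout and 10.23 to 10.53 in WT samples. At an unadjusted p under 0.05, 5 of these markers were higher and 0 lower, beside the same shares of all genes, and 0 passed in limma. Their part in the matrix values was not tested.

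Among 31 genes of the postsynaptic membrane and scaffold, 0 passed over all genes in limma. At an unadjusted p under 0.05, 6 were higher (4.72% of all genes) and 2 were lower (3.18% of all genes), and the median difference was 0.04. The genotypes did not overlap in 4 higher and 3 lower genes, against 2.91% and 1.99% of all genes. Sntb1, the beta-1 syntrophin of the dystrophin complex, read 10.21, 10.09, 10.49 and 10.46 in Hdac5 KO samples 1 to 4, against 9.82, 9.67, 10.03 and 9.58 in WT samples 1 to 4. All knockout samples were higher, and the signal ratio was 1.45 (95% interval 1.23 to 1.71). Dtna, alpha-dystrobrevin, which steadies receptor clusters, differed by 0.20, and Ptprs, a receptor phosphatase, by 0.28, also without overlap.
Erbb3, a neuregulin receptor, read 8.06, 8.10, 8.03 and 8.00 in Hdac5 KO samples 1 to 4, against 8.22, 8.41, 8.42 and 8.36 in WT samples 1 to 4. It was lower in every knockout sample, with a signal ratio of 0.809 (95% interval 0.737 to 0.888). Schwann cells also express Erbb3, and 10 of their 12 measured markers had lower means in knockout muscle. At an unadjusted p under 0.05, 0 of those markers were higher and 3 lower, beside 4.72% and 3.18% of all genes. In limma, 0 of them passed over all genes. The mean of those markers was 7.95 to 8.15 in knockout and 8.09 to 8.34 in WT samples, and their part in the Erbb3 value was not tested.

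Genes that respond to denervation or to electrical activity had a median difference near 0. Of 24 measured, 0 passed over all genes in limma, 3 were higher and 1 lower at an unadjusted p under 0.05, beside 4.72% and 3.18% of all genes. The median difference was 0.03, with a sign that turned without Hdac5 KO sample 2 or 3 or WT sample 4 (-0.006, -0.015 and -0.001). Hdac9, another class IIa deacetylase, differed by 0.37 and Sik1, a kinase of class IIa deacetylases, by 0.22. Myog, the myogenin gene, averaged 7.75 ± 0.19 in knockout and 7.71 ± 0.08 in WT muscle (SD, n = 4 each). Dach2, the repressor upstream of it, averaged 8.04 ± 0.24 in knockout and 7.84 ± 0.12 in WT muscle, and Hdac4 10.40 ± 0.13 in knockout and 10.51 ± 0.07 in WT muscle (SD, n = 4 each). The samples of the genotypes overlapped for these 3 genes, which were named for their roles outside the rule.

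The neuronal nicotinic receptor genes were dim. The 11 measured lay between the 10.7th and 38.5th percentile of gene signals, 0 passed over all genes in limma, and 0 were higher and 1 lower at an unadjusted p under 0.05, beside 4.72% and 3.18% of all genes. That 1 was Chrna10, at -0.18. Their median difference was -0.06, and it was 0.002 without Hdac5 KO sample 1 and 0.024 without WT sample 4. Genes of the motor axon and its terminal had a median difference of 0.06 over 18 genes, with 0 passing in limma and 2 higher and 0 lower at an unadjusted p under 0.05, beside the same shares of all genes. Those 2 were Mnx1 (difference 0.23) and Stmn2 (0.15). The signals of the 18 genes lay between the 10.9th and 59.3th percentile, with Stmn2 the brightest. Chat, which makes acetylcholine in the nerve and was named for its role outside the rule, lay at the 20.2th.

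**Figure D4:**
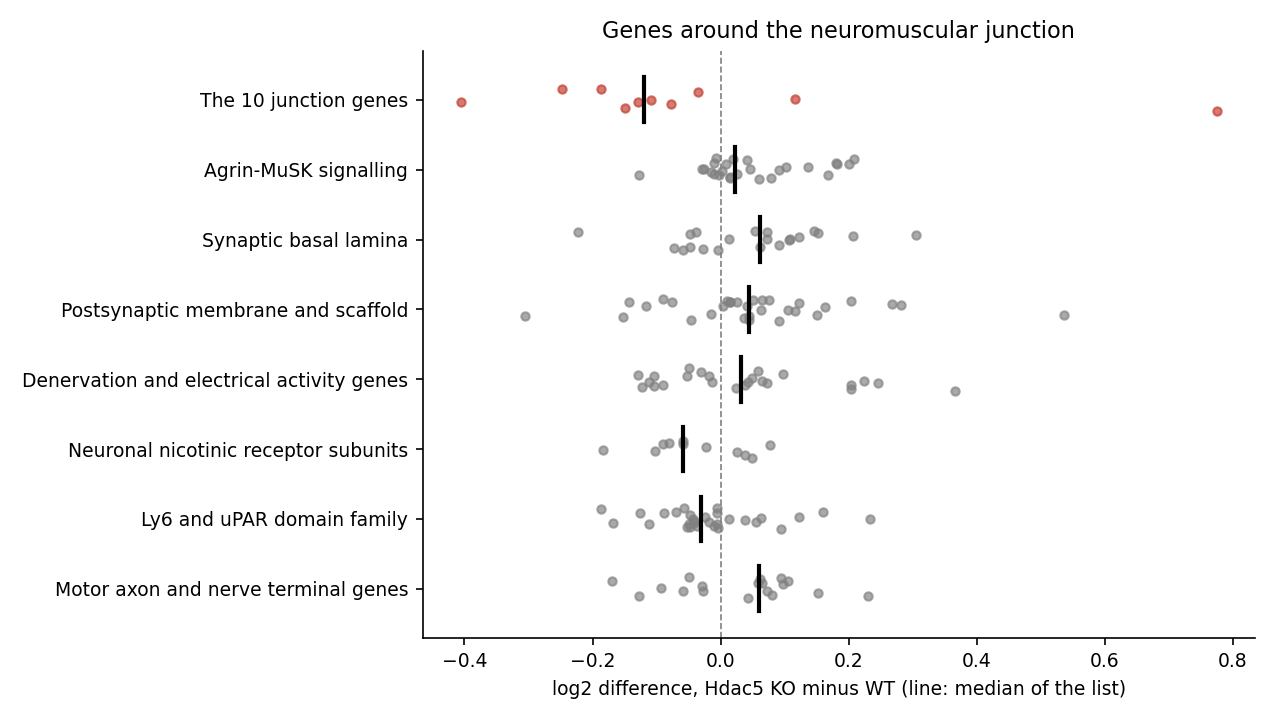
Log2 difference, Hdac5 KO minus WT (horizontal axis), of the 10 junction genes (red) and of the measured genes of 7 related lists (grey), each point a gene and each black line the median of its row. The median of the 10 junction genes is -0.12, with Musk at the far left and Lynx1 at the far right, and the medians of the lists lie between -0.06 and 0.06.

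Levels of fibre type genes and of markers of other cells are given beside these values. Of 10 slow fibre genes, 9 had lower means in knockout muscle and 0 passed over all genes in limma. At an unadjusted p under 0.05, 8 were lower and 1 was higher, against 3.18% and 4.72% of all genes. That 1 was Casq2, a calcium-binding protein of the sarcoplasmic reticulum, at 0.35, named after its value was seen. Their list mean was 10.49, 10.84, 11.10 and 10.94 in Hdac5 KO samples 1 to 4, against 11.08, 11.45, 11.46 and 11.18 in WT samples 1 to 4. Within the knockout group, Musk was lowest in samples 3 and 4 and the slow fibre mean was lowest in sample 1. Chrna1, Chrnd, Chrne, Chrng and Ache were also lowest in sample 1. The Schwann cell and endothelial marker means were lowest there too, and the macrophage and fibroblast marker means were lowest in Hdac5 KO sample 2. The 12 fast fibre genes had a median difference of -0.02. The part of fibre type in the junction values was not tested.

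Macrophage markers were higher in mean for 11 of 12 genes, with list means of 8.47 to 8.79 in knockout and 8.18 to 8.52 in WT samples. At an unadjusted p under 0.05, 8 of them were higher and 0 lower, where 4.72% of all genes were higher and 3.18% lower. Their median difference was 0.30, and 0 passed over all genes in limma. Keratinocyte markers, counted because genes of the Ly6 family are also expressed in skin, had list means of 7.25 to 7.69 in knockout and 7.24 to 7.43 in WT samples. The highest was Hdac5 KO sample 4, in which Krt10 read 9.08 against 7.81 to 7.98 in the other knockout samples and 7.75 to 8.15 in WT samples. Of the 11 measured keratinocyte markers, 8 had higher and 3 had lower means in knockout muscle, and 0 passed over all genes in limma. At an unadjusted p under 0.05, 0 were higher and 1 lower, beside the same shares of all genes. That 1 was Trp63, at -0.14. The median difference was 0.049, and it was -0.041 without Hdac5 KO sample 4. The 11 markers lay between the 10.4th and 73.0th percentile of gene signals, with Trp63 the brightest. Krt14, a defining keratin named for its role outside the rule, lay at the 22.1th percentile. The part of these markers in the Lynx1 value was not tested.

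**Figure D5:**
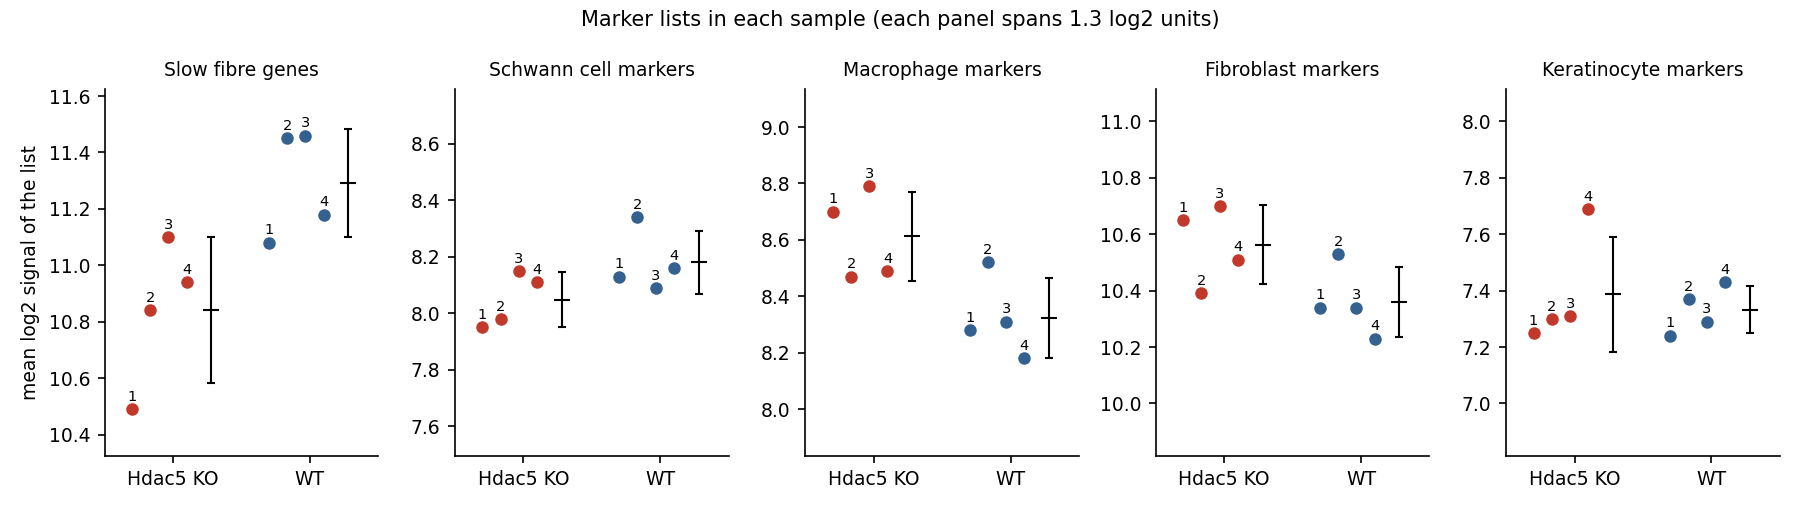
Mean log2 signal (vertical axis) of 5 marker lists in each Hdac5 KO sample (red, left) and WT sample (blue, right), numbered 1 to 4, with the mean and SD in black. Slow fibre means of 3 knockout samples lie below all WT samples, macrophage means of 2 knockout samples lie above all WT samples, and the genotypes overlap in all 5 lists.

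WT sample 1 was often the high one. It was the highest WT sample in 7 of the 10 genes, and Hdac5 KO sample 1 was the lowest knockout sample in 5. The median SD over the 10 genes was 0.14 in the knockout group and 0.10 in the WT group, while over all genes it was 0.096 in the knockout group and 0.094 in the WT group.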

How the data were processed

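Gastrocnemius RNA of 4 Hdac5 KO and 4 WT samples was hybridised to 8 Affymetrix mouse arrays. Per the labels, 150 ng of total RNA with an integrity number above 8 went into amplification and biotin labelling for each one. The deposited values are log2 signals, 1 per probe set and array, made by the authors with Affymetrix Expression Console 4.0, per the submitters' processing notes. The sources used here do not give their background correction, summarisation or normalization. The log2 scale follows from the range of the values. Array medians lay between 7.69 and 7.77. The number of arrays limits the precision.

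Of 35556 probe sets, 21789 carried 1 gene symbol, 1621 carried several and 12146 had no listed symbol in the platform annotation. Identifiers of 21698 matched RefSeq assembly GRCm38.p6, which was used for names, gene order and promoters. The brightest probe set stood for each gene, which left 19938 genes. Knockout and wild type were compared with limma 3.58.1 (lmFit, eBayes) in R 4.3.3 on the deposited log2 values, with genotype as the only term and Benjamini-Hochberg adjustment over all genes. The fit was tested on simulated data. The groups share replicate numbers 1 to 4, but same-numbered samples did not deviate together throughout, so no block was used. The genes and lists were chosen with earlier results of these data known. The rule for named genes took the 10 genes, Hdac5, from each list up to 4 genes of smallest p and the 2 brightest, and the 5 genes nearest to Lynx1. Alternatives were quantile normalization, dim genes left out (below the 25th percentile), trended and robust eBayes, array weights, a replicate block, probe set means, each sample left out and an exact permutation test. Plots were drawn with matplotlib 3.10.9.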

Additional observations from a re-analysis of the deposited data

Results flagged for a closer look

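Among 22 groups of 4 samples (the 10 junction genes and Hdac5 in each genotype), 2 held a sample far from the other 3, and chance flags about 1 in 20 groups. Rapsn was 9.61 in WT sample 1, against 9.30 to 9.34 in the other WT samples. Hdac5 was 8.39 in Hdac5 KO sample 4, against 8.31 to 8.32 in the other knockout samples, a small distance beside the genotype difference.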

How the results depend on the processing

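With all 8 samples, 0 of the 10 junction genes were called, and this held under quantile normalization, dim genes left out, trended and robust eBayes, array weights, the replicate block and probe set means. Leaving out 1 sample gave 0 to 1 called genes, the 1 being Lynx1 without WT sample 1 (difference 0.948, with 0.671 to 0.948 over such fits). By the exact two-sided permutation test, unadjusted, Musk (-0.406), Chrnb1 (-0.247) and Lynx1 (0.775) reached p = 0.0286, the smallest that 4 against 4 samples allow. Any gene whose genotypes do not overlap gets that p, so it restates the lack of overlap, which 4.9% of all genes showed. Dim genes left out, trended and robust eBayes, the replicate block and probe set means could not change the differences of the 10 genes. The directions of 9 of the genes held in the 15 refits of each, of which only the other refits were able to turn them. The exception, Rapsn, turned to 0.013 without Hdac5 KO sample 3 and 0.038 without WT sample 1 (lowest -0.093, and -0.121 without both Hdac5 KO sample 1 and WT sample 4). The number of genes called over the whole table was 13, and it was 36 with dim genes left out, which tests fewer genes, 44 with trended and robust eBayes, 31 with array weights and 30 with the replicate block. It ran from 5 to 20 with 1 sample left out, and was 5 without both Hdac5 KO sample 1 and WT sample 4. The cause of these changes was not tested.

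Same-numbered samples had correlations of deviations of 0.338, -0.115, -0.153 and 0.340. The highest of each knockout sample with a WT sample of another number were 0.137, 0.204, 0.133 and 0.007. The same-number value was the higher for numbers 1 and 4 and the lower for numbers 2 and 3, so the numbers were not taken as pairs. With the replicate block the adjusted p was 0.0629 for Lynx1 and 0.0734 for Musk in limma. Trended and robust eBayes and the replicate block cannot change a difference, so the list medians under them had to stay the same. Of 266 list medians recomputed, with those included, 257 moved by less than the spread between samples. Of the other 9, the denervation median (0.031) was 0.003 under quantile normalization, 0.004 with array weights and -0.015 to 0.040 with 1 sample left out. The motor axon median (0.060) was 0.021 to 0.058 with 1 sample left out. Under quantile normalization the fast fibre median was -0.001 and the muscle identity median -0.009. The number of arrays limits the precision.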
